A study of Arabidopsis thaliana with 4 samples.

Results

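Of the 1958 genes that the authors listed as targets of the floral regulator AGAMOUS (AG), 640 (32.7%) had peaks only far upstream. A gene belongs here if its score in the authors' deposited target table was above 0 between 1000 and 2000 bp or between 2000 and 3000 bp upstream of its 5' end, or in both stretches. Its scores within 1000 bp upstream, inside the gene and within 1000 bp downstream of its 3' end all had to be 0. The nearer stretch alone gave 310 of these genes, the farther stretch alone gave 311, and 19 had a peak in both. Among the 27432 nuclear protein-coding genes that RefSeq names, 585 (2.13%) were listed only 1000 to 3000 bp upstream, and 1815 (6.62%) were anywhere in the target table. The members were chosen by these scores, so the counts are a description and no score of theirs is tested.

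The peaks come from chromatin immunoprecipitation with an anti-GFP antibody followed by sequencing (ChIP-seq), in inflorescences of Arabidopsis thaliana of the Ler-0 background. AG-GFP AP1-GR ap1 cal plants carried GFP-tagged AG and gave 2 libraries, and AP1-GR ap1 cal plants without the tag were the negative control, also with 2 libraries. Both groups carried the ap1-1 and cal-1 mutations, which leave inflorescence-like meristems in place of flowers, and the 35S:AP1-GR transgene, driven by a promoter active in most tissues. Dexamethasone (10 uM), given to both groups, lets these meristems form flowers in step, and inflorescences were harvested after 4 days. The promoter that drives AG-GFP is not given in the sources used here. The deposited tables hold 1 Poisson score per peak for the whole series, with no value per library, so no score below carries a replicate error and the depth is unknown.

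AG is a MADS-domain transcription factor that specifies stamens and carpels and ends the activity of the floral meristem. It acts in complexes with other MADS-domain proteins such as SEPALLATA3 (SEP3). Plant genes often carry regulatory sequence close to their start, but some floral regulators are known to be controlled from sites farther upstream or inside introns. A peak far upstream of one gene can also lie next to, or inside, another gene, and a target table of this kind then lists it for both.

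Small regulatory RNAs are among the genes with only distal peaks, and their mature sequences are shown because copies of the same microRNA differed in where the peak lay. Of 28 target genes annotated as encoding a microRNA, 7 had only distal upstream peaks (25%, against 32.7% of all target genes). MiR156 and miR157 lower the products of SPL transcription factor genes and hold plants in the juvenile phase. MiR159 acts on GAMYB-like genes, miR169 on NF-YA genes, and miR394 on the F-box gene LCR. The sequences are those in the authors' annotation, written 5' to 3' with T for U, and the capitals mark the seed, bases 2 to 8. MIR159A and MIR169C, which had peaks within 1000 bp upstream, are given for comparison.
MIR156E: tGACAGAAgagagtgagcaca
MIR156F: tGACAGAAgagagtgagcaca
MIR156D: tGACAGAAgagagtgagcaca
MIR157A: tTGACAGAagatagagagcac
MIR169A: cAGCCAAGgatgacttgccga
MIR169C: cAGCCAAGgatgacttgccgg
MIR159B: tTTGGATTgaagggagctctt
MIR159A: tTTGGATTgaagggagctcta
MIR394A: tTGGCATTctgtccacctcc

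The mature sequences of MIR156D, MIR156E and MIR156F were identical, and MIR157A shared a run of 10 bases with them, starting at base 1 of miR156 and at base 2 of MIR157A. MIR156E (AT5G11977) had the highest score of the 7, 1559 at chr5:3865564-3865887 (TAIR10), and a second peak of 61.4 in the farther stretch. MIR156F (AT5G26147) had 1078 at chr5:9133239-9133484, and MIR156D had 156. MIR156C, another copy with the same mature sequence, had a score of 152 within 1000 bp upstream and so lies outside the set. Both MIR156E peaks are also listed for AT5G11970, the MIR156F peak for AT5G26146 and the MIR156D peak for AT5G10946. Among these copies with an identical product, MIR156D and MIR156C thus had similar scores in different stretches, and MIR156E and MIR156F had higher scores.

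MIR169A had a score of 164 in the nearer stretch, whereas MIR169C, which shares the first 20 of its 21 bases, had 773 within 1000 bp upstream. MIR159B had 110.0 in the nearer stretch, from a peak also listed for AT1G18070 and AT1G18080, and MIR159A, again with 20 shared bases, had 269 within 1000 bp upstream. MIR157A had 117 and MIR394A had 65.95. The peaks of MIR169A and MIR394A are listed for other target genes too, and MIR157A is the only one of the 7 whose peak is not. For 4 of the 7, no protein-coding gene was nearer to a peak or lay between the peak and the microRNA gene. The same held for 156 of the 625 genes of the set that RefSeq names. TASIR-ARF (AT5G57735), a locus for a small interfering RNA against auxin response factor transcripts, had 491 in the farther stretch and 62.0 in the nearer one. It was named after its values were seen.

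The genes with only distal peaks had a median and quartiles of the score close to those of the other targets, and a lower maximum. The 640 genes had a median highest score of 154 (quartiles 76.8 and 295, range 38.1 to 5154). The 1318 other target genes had a median of 144 (quartiles 80.3 and 282, range 38.1 to 12585). At or above the median score of the peak list, 139.67, lay 337 of the 640 genes (52.7%, 48.7 to 56.6%) and 675 of the others (51.2%, 48.5 to 53.9%). These and all later ranges after a share are 95% exact Clopper-Pearson intervals, which cover counting error only and treat genes as independent although many share a peak. A score of at least 1000 was reached by 30 of the 640 genes and by 53 of the others.

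Within the set, the median was 144 for genes with a peak only in the nearer stretch, 149 for those only in the farther stretch and 491 for the 19 with both. A gene with more than 1 peak has more chances of a high maximum, so these medians are not on equal terms. In 11 of the 19 genes the nearer peak scored higher, in 7 the farther one did, and in GUT1 (AT5G61840) both scored 58.2. The 566 distinct peaks of the set were 232 bp wide at the median, against 235 bp for the 855 other peaks. Across the 566 peaks, wider peaks had higher scores (Spearman's rho 0.71, a description over peaks that share their libraries).

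**Figure D1:**
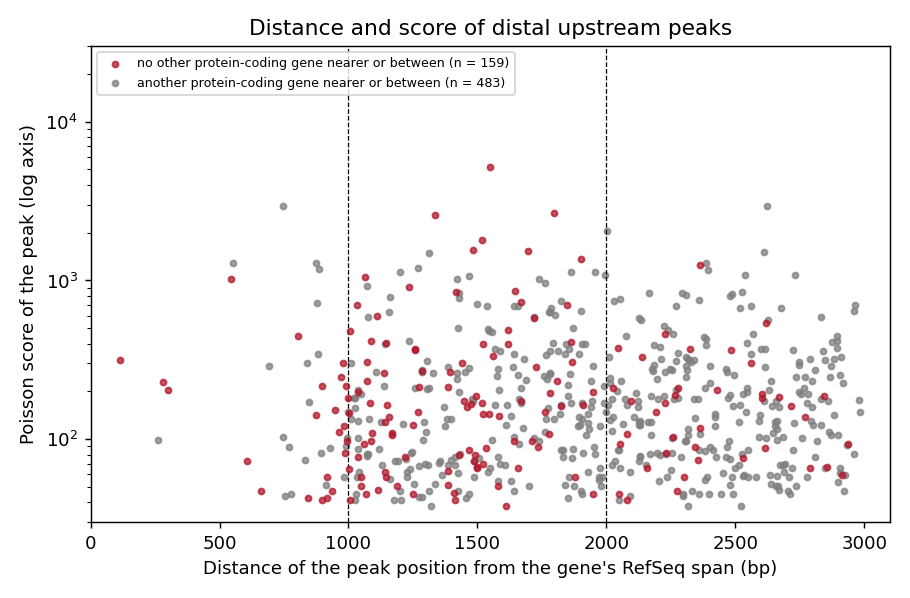
Poisson score of each peak (log axis) against the distance of its position from the RefSeq span of the gene it was listed for, in bp; dashed lines mark 1000 and 2000 bp. Red points (159) have no other protein-coding gene nearer or between, grey points (483) have one, and both kinds are found along the whole range of distances and scores.

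Distances were spread over the whole stretch, with the fewest pairs in its last step, as the plot of score by distance shows. In steps of 250 bp starting at 1000 bp from the RefSeq span, there were 77, 79, 65, 86, 77, 83, 77 and 53 pairs of gene and peak. Of all 643 pairs, 565 (87.9%) lay at the distance that the authors' column gives when measured from the RefSeq gene span, and 45 lay closer than 1000 bp. RefSeq's gene ends (assembly TAIR10.1) are not those the authors used, so membership here rests on the authors' table and the distances are approximate.

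Most genes with only distal peaks shared a peak with another target gene, about as often as the other targets did. Of the 625 genes that could be joined to a peak, 480 (76.8%, 73.3 to 80.1%) shared one with another target gene, as did 945 of 1289 other targets (73.3%, 70.8 to 75.7%). Each of the 625 genes was then counted once, in the first class that applied in the order given here. The same peak lay inside another target gene for 102 (16.3%). For 236 further genes (37.8%) it lay within 1000 bp upstream of another target gene. For 62 genes (9.92%) it lay within 1000 bp downstream of another target. For 80 genes (12.8%) the other gene was also 1000 to 3000 bp away, and these had a median score of 202. The remaining 145 genes (23.2%) had peaks listed for no other target, with a median score of 144.

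**Figure D2:**
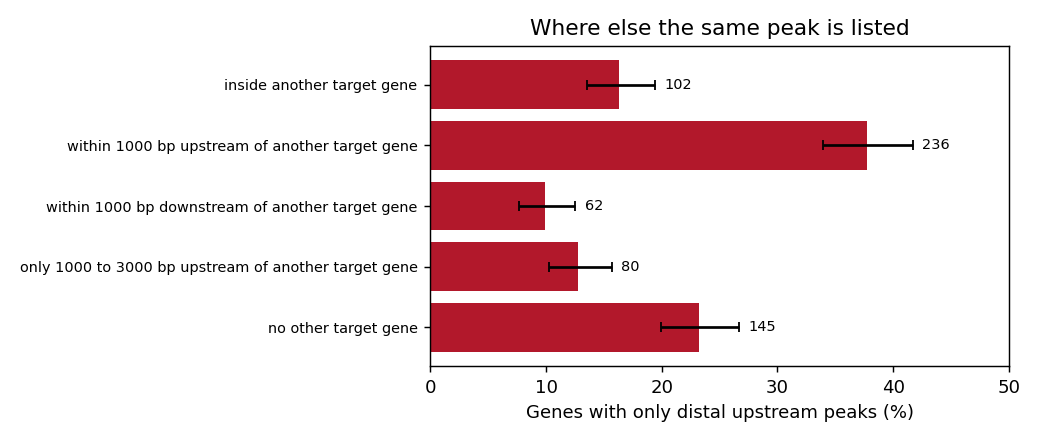
Share of the 625 genes with only distal upstream peaks (%) by where else the same peak was listed in the target table; bars carry 95% exact intervals (counting error only) and the number of genes. Each gene was counted once, in the first class that applied, read from the top. The largest class, 236 genes, had its peak within 1000 bp upstream of another target gene, and 145 genes had a peak listed for no other.

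The neighbours were also counted over all protein-coding genes of RefSeq, in the target table or not. In 483 of 642 pairs (75.2%, 71.7 to 78.5%) another protein-coding gene was nearer to the peak than the gene it was listed for, or overlapped it. The peak position lay inside another protein-coding gene in 165 pairs (25.7%), and a gene lay between in 284 (44.2%). For the 603 genes with a peak only within 1000 bp upstream, pairs were counted only where the peak lay outside the gene's own RefSeq span. Another gene was nearer in 165 of these 480 pairs (34.4%, 30.1 to 38.8%). Peaks inside the gene's own span were left out, and counting them would lower this share. The rule fixes the larger distance of the distal peaks, so this contrast is partly built in. In 159 pairs, from 156 genes, no other protein-coding gene was nearer or between, and these genes had a median score of 163.

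The gap to the next protein-coding gene on the upstream side, taken as the side of the peak, had a median of 1913 bp for 584 genes with only distal peaks. It was 5102 bp for the 149 of these with no other protein-coding gene nearer or between, a condition that itself selects wide gaps. The median gap was 1166 bp for 450 of the 603 genes with a peak only within 1000 bp upstream. These 450 are the protein-coding ones whose peak lay outside their own span. The rule places the peaks of the set farther out, so this contrast is also partly built in. The genes themselves had a median length of 2141 bp in the set and 2333 bp among the other targets, against 2078 bp over all protein-coding genes.

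The highest distal scores illustrate both situations. AT1G24265, a gene annotated only as similar to an unknown protein, had 5154 at chr1:8598539-8599080. No other protein-coding gene was nearer to this peak than AT1G24265 or lay between them. The same peak is listed 2000 to 3000 bp upstream of SEP3, which stays outside the set because it has a further peak of 455 inside the gene. AT1G28040 and AT1G28060 both had 2927 from 1 peak at chr1:9777868-9778323, which lies next to the B-box gene BBX13. AT4G32990, a WD-40 repeat gene, had 2044 from a peak listed within 1000 bp upstream of the homeobox gene ATH1.

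Several more of the 25 highest-scoring genes shared their peak with a nearby regulator. HVA22F, of an abscisic acid-responsive family, had 1495 from a peak within 1000 bp upstream of SHATTERPROOF2 (SHP2), a MADS-box gene of carpel development. RALFL34, which encodes a RALF-like signalling peptide, had 1087 from a peak within 1000 bp upstream of HECATE1 (HEC1), a bHLH gene of the pistil. AT1G02060, a pentatricopeptide repeat gene, had 1164 from a peak inside SPL8, a squamosa promoter-binding-like gene. For these genes the target table names 2 candidates for 1 peak, and it does not tell them apart.

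Other high scores came with no other target and no nearer gene. XTH27, a xyloglucan-modifying cell wall enzyme, had 2673 at chr2:383158-383602. TOE3, an AP2-like transcription factor gene, had 2589.5 at chr5:26805424-26805826 and 559 in the farther stretch. ATC, a relative of the inflorescence regulator TFL1, had 1798 at chr2:11771432-11771836.

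PG2, annotated as a polygalacturonase, had 1539.5 at chr1:26516747-26517156, AT3G15470, a WD-40 repeat gene, had 1362, and CBSX1 had 1256. In all, 8 of the 25 had at least 1 peak with no other protein-coding gene nearer or between, against 156 of the 625 genes joined to a peak. The others include the bHLH gene PIL1 (1136), GEX3 (1137), the kinase gene AT3G17410 (1192), AT1G10740 and AT1G10747 (1294, 1 peak), AT5G61090 (1290.4) and AT2G19460 (1173). The F-box gene AT1G27550 had 1138 from a peak 2942 bp wide, the widest of the set, and 161 in the farther stretch. AT5G26146, which has no annotation in the table, had the MIR156F peak of 1078.

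Regulators of flower and leaf development and of hormone pathways were looked for in 9 lists with 173 genes, chosen with earlier results of these data known. Another 2 lists, of photosynthesis and housekeeping genes, were added for comparison. Of the 173 genes, 77 were in the target table, and 19 of the 77 (24.7%, 15.6 to 35.8%) had only distal peaks, against 32.7% of all target genes. As a share of all 173 genes this is 10.98% (6.74 to 16.6%), against 2.13% of protein-coding genes. The counts for single lists below are small and are to be read beside these shares, 32.7% and 2.13%. The distal scores of 14 of the 19 were at or above the median of the peak list, against 337 of all 640 genes of the set. No other protein-coding gene was nearer or between for 9 of the 19, against 156 of the 625 genes joined to a peak.

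Among floral organ identity genes, 1 of 13, AP2, had only distal peaks, and 8 were other targets. AP2, which specifies sepals and petals and counteracts AG, had 859.9 at chr4:17398802-17399174 and 542 at chr4:17397847-17398086. No other protein-coding gene was nearer to either peak. The CBSX1 peak of 1256 lies in the same stretch between CBSX1 and AP2 and is listed for CBSX1 alone. The related genes TOE3 (above) and SMZ (372), all repressors of flowering from the family that miR172 acts on, also had only distal peaks. TOE1 had 429 and SNZ 135 within 1000 bp upstream. These relatives of AP2 were named after their values were seen.

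None of the 33 MADS-box genes in that list had only distal peaks, while 19 of them were other targets. Over all target genes the share with only distal peaks was 32.7%, and over all protein-coding genes it was 2.13%. SEP3, FLC and SVP all had distal peaks (5154, 1224 and 1078) but also a peak nearer or inside. AGL28, a MADS-box gene outside the list that was named after its value was seen, had 85.3 in the farther stretch. AP1 likewise had 1352 upstream beside 3529 inside the gene, and AG itself had 736 upstream beside 12585 inside, the highest score of all peaks.

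Of 24 genes of the floral meristem and of flowering time, 2 had only distal peaks and 11 were other targets. UFO, an F-box protein that works with LEAFY, had 374 in the farther stretch, with no other gene nearer. STM, the homeobox gene that maintains the shoot meristem, had 97.1. By the RefSeq span, the STM peak lay 1713 bp away and so in the nearer stretch.

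Carpel and ovule genes gave 2 members of 19, with 5 other targets. CRC, a YABBY-type gene needed for carpel form and nectaries, had 1514 at chr1:26011595-26011872. AT1G69190 was nearer to this peak, at 1262 bp, but is not listed for it. HEC2, a bHLH gene of the transmitting tract, had 488 with no other gene nearer. Its relative HEC1 had a peak of 1087 within 1000 bp upstream, the one shared with RALFL34.

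Stamen and anther genes gave 4 of 19, with 5 other targets. ROXY1, a glutaredoxin of petal and anther development, had 630.5 at chr3:334715-334978, a peak listed for no other target. TPD1, the secreted ligand of the EMS1 receptor in tapetum formation, had 266, and this peak is also listed downstream of AT4G24970. SERK2, a receptor kinase that acts with EMS1, had 179 from a peak inside AT1G34200. SPOROCYTELESS (SPL, also NZZ), which starts sporogenesis, had 163 with AT4G27340 nearer.

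Leaf growth and polarity genes gave 4 of 29, with 10 other targets. PHV, a class III HD-ZIP gene that sets the upper leaf side, had 1045 at chr1:10802031-10802299. REV, of the same class, had 169 in the nearer stretch, and BOP1, which patterns the leaf base, had 302 in the farther one. GRF6, a growth-regulating factor, had 50.8. No other protein-coding gene was nearer to any of these peaks.

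Trichome genes gave 3 of 16, with 4 other targets. GL1, the MYB protein that starts trichome formation, had 358, with DEG1 nearer to the peak. TTG2, a WRKY gene, had 106 from a peak inside AT2G37250, and GIS, a C2H2 zinc finger gene, had 47.8. Among gibberellin genes, 2 of 17 had only distal peaks and 3 were other targets. The DELLA gene RGL2 had 397, and GA2OX1, which inactivates gibberellin, had 62.0. Of 15 auxin genes, ARF6 was the only one, with 169 and no other gene nearer, and 2 were other targets. The 9 photosynthesis genes and the 9 housekeeping genes with a locus gave none, with 1 and 0 other targets. At a share of 2.13% over all protein-coding genes, lists this short can easily hold none, so no contrast is drawn from them.

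**Figure D3:**
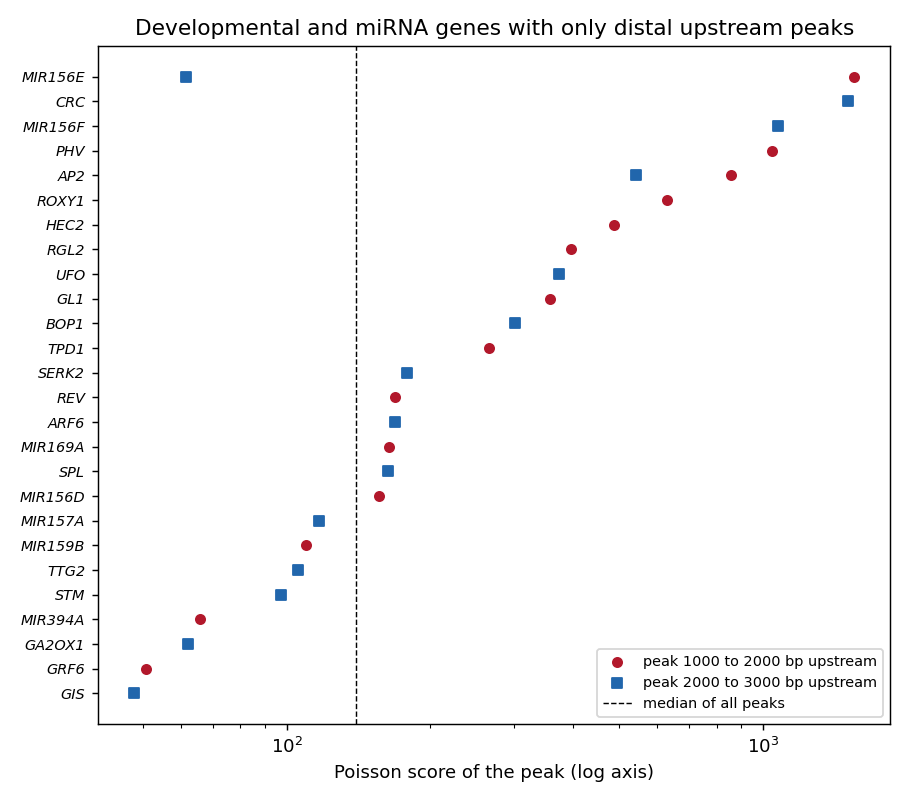
Poisson score (log axis) of each peak of the microRNA genes and list genes with only distal upstream peaks; red circles are peaks 1000 to 2000 bp upstream, blue squares are peaks 2000 to 3000 bp upstream, and the dashed line is the median of all peaks, 139.67. MIR156E, CRC, MIR156F and PHV lie above 1000, and GIS and GRF6 have the lowest scores.

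By the authors' annotation, genes for transcription factors made up 51 of the 606 annotated genes with only distal peaks (8.42%, 6.33 to 10.9%). They made up 148 of the 1255 annotated other targets (11.8%, 10.1 to 13.7%). The intervals overlap, and no test was made, because the scores chose the members. The 3 with the highest scores were TOE3, CRC and PIL1.

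Where no other protein-coding gene was nearer or between, 24 of 153 annotated genes encoded transcription factors (15.7%, 10.3 to 22.4%). Where one was, 27 of 449 did (6.01%, 4.0 to 8.63%). Genes with a peak only within 1000 bp upstream had 66 of 581 (11.4%, 8.9 to 14.2%). Where their peak lay outside the gene's own span and no other gene was nearer, the count was 45 of 309 (14.6%, 10.8 to 19%). This split was added after the data had been seen.

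Families were counted among the 51 transcription factor genes of the set and the 148 of the other targets, so equal counts are not equal shares. By family, AP2/ERF genes were the most frequent in the set, with 12, and there were also 12 among the other targets. Besides the AP2-like genes they include PLT1 (365), a root stem cell regulator, and DRNL (266), which acts in organ initiation. The bHLH genes numbered 5 in the set against 13 other targets, homeobox genes 5 against 18, MYB genes 3 against 9, NAC genes 4 against 3 and WRKY genes 3 against 4. The words for MADS-box genes matched 2 annotations in the set, AGL28 and CRC, against 20 among the other targets. CRC is no MADS-box gene, but its annotation mentions binding sites for MADS box proteins. The homeobox gene HAT3 had 907 with no other gene nearer. A family was counted only where the annotation names it, so these counts can miss genes. The GRAS genes RGL2 and SCL7 (735) were in the set, while GAI, another DELLA gene, had 86.6 as an other target. The families, and the genes named for them, were chosen after the values were seen.

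Genes for pre-tRNAs made up 18 of the 606 annotated genes (2.97%, 1.77 to 4.65%), against 11 of the 1255 other targets (0.877%, 0.438 to 1.56%). Another gene was nearer or between for 16 of the 18. Among all annotated genes of the set, this held for 449 and not for 153. The highest were AT5G06125 (826, a leucine tRNA gene whose peak lies inside AT5G06130), AT3G02315 (741, an isoleucine tRNA gene) and AT5G25585 (639). The AT3G02315 peak is also listed within 1000 bp upstream of SEP2. Pentatricopeptide repeat genes, which act on RNA in organelles, gave 10 (1.65%, 0.794 to 3.01%), against 7 (0.558%, 0.225 to 1.15%) of the other targets. For 9 of the 10 another gene was nearer or between, to be read beside the same 449 and 153 over the set. AT1G02060, AT1G73400 (1023) and AT5G13230 (777) had the highest scores. Both classes were singled out after the annotations had been read.

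**Figure D4:**
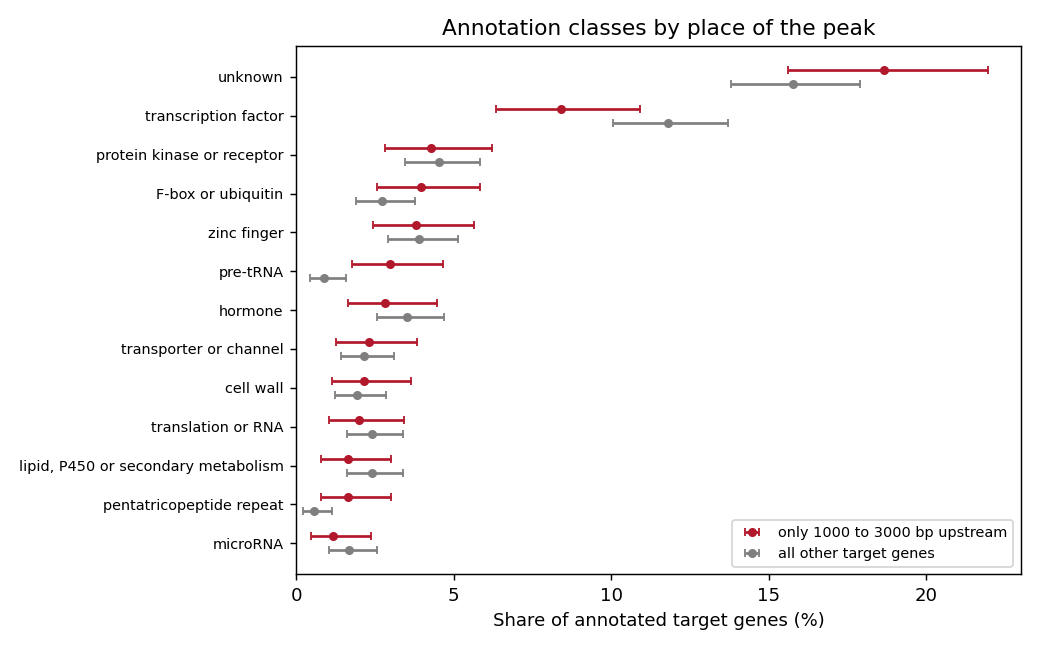
Share of annotated target genes (%) in each keyword class, for the 606 genes with peaks only 1000 to 3000 bp upstream (red) and the 1255 other target genes (grey); points are shares and lines 95% exact intervals (counting error only), and a gene can be in several classes. The intervals overlap in every class drawn except pre-tRNA.

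The other classes had overlapping intervals. The keywords for protein kinases and receptors matched 26 genes (4.29%) against 57 other targets (4.54%), with AT3G17410, AT3G61160 (690.4) and AT1G27590 (618) the highest. AT1G27590 is annotated as similar to a phosphatidylinositol kinase family, not to protein kinases. F-box and ubiquitin genes made up 24 (3.96%) against 34 (2.71%), led by AT1G27550, SUMO3 (806) and AT3G63220 (630.5). Zinc finger genes gave 23 (3.80%) against 49 (3.90%), led by AT1G28040, CRC and EDA18 (836). Hormone genes gave 17 (2.81%) against 44 (3.51%), led by HVA22F, EOL2 (1065) and the jasmonate methyltransferase gene JMT (828). Cell wall genes gave 13 (2.15%) against 24 (1.91%), led by XTH27, PG2 and PDCB2 (759.7). Genes of unknown function made up 113 (18.7%) against 198 (15.8%), led by AT1G24265, AT1G10740 and AT2G19460. In no class were 280 of the 606 genes.

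The 5 genes with 2 distal peaks whose weaker peak was highest were TOE3 (559), AP2 (542), AT1G27590 (331), LSH3 (246) and RUG1 (199.53). LSH3, a boundary gene of the ALOG family, had 308 in the nearer stretch as its other peak. RUG1 had 383 in the farther one, a peak also listed for MIR166D within 1000 bp upstream. The score of RUG1 in the nearer stretch, 199.53, is also given for MIR166D 1000 to 2000 bp upstream and for MIR166C within 1000 bp downstream. In LSH3 and RUG1, no other protein-coding gene was nearer to the peak in the nearer stretch, but one was for the peak in the farther stretch.

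At the low end, 4 genes tied at a score of 38.1. They were AT1G12070 and AT1G12080, which share 1 peak, ZFN1 and AT3G27980. Just outside the set lie genes with a weak further peak. AT2G34340 had 65.95 in the nearer stretch but 44.9 within 1000 bp upstream, and AT5G11170 had 564 in the farther stretch with 44.9 within 1000 bp. LEAFY (LFY), the regulator that activates AG, had 58.2 both in the nearer stretch and within 1000 bp upstream. Both peaks are also the distal peaks of its neighbour GUT1, which is in the set. In all, 91 of the 731 genes with a peak 1000 to 3000 bp upstream had such a further peak, within 1000 bp upstream in 61, inside the gene in 24 and downstream in 13.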

How the data were processed

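Reads were processed by the authors. They used TAIR10, per the submitters' processing notes. How reads were aligned, peaks called and replicates combined was not given in the sources used here. The deposited peak list gives a start, an end, a width, a position and a Poisson score for each of 1421 peaks. Its headers for position and score are exchanged, so here each column was taken for what its numbers are. The authors' deposited target table holds the highest score in 5 stretches around each of 1958 genes, per the file headers. Neither table has a value per library, so depth and replicate error are unknown and no test was made.

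Genes were joined to a peak with the same score (within 0.006) on the same chromosome, within 5000 bp of the RefSeq gene span (TAIR10.1). The plan had been to join by score alone, but 1047 of the 1421 peaks share their score with another, so position was added once this was known. The join was checked on simulated data, in which genes stood far apart and each had only its own peak within reach. That check does not cover close neighbours or nearby peaks of equal score. RefSeq held 625 of the 640 genes, and the other 15 have no neighbours given. The strand of a gene was taken from the side of its peak. Distances and gaps use RefSeq spans, and none of its coordinates is printed.

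Annotation classes use keywords in the authors' annotation, which 606 of the 640 genes and 1255 of the others have. The genes, lists and classes were chosen with earlier results of these data known. Keywords, loci for shared symbols and transcription factor families were adjusted after the annotations had been read. EF1A, a symbol shared by several genes, was left out of its list. The text names the 25 highest-scoring genes, all list members, 5 genes with both stretches, the lowest scores and up to 3 genes per class described. Python 3.11.15, numpy 2.4.6, pandas 2.3.3, scipy 1.17.1 and matplotlib 3.10.9 were used.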

Additional observations from a re-analysis of the deposited data

How the results depend on the processing

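No paired analysis was possible because the tables hold no value per library, and for the same reason no library could be left out. Counting only peaks at or above the median score gave 355 genes, of which 337 are among the 640. The nearer stretch alone gave 310, the farther alone 311, and leaving out genes whose every peak is shared gave 152. Rebuilding the set with RefSeq spans gave 579 genes by peak position (578 of them shared with the authors' table) and 533 by any overlap of the peak (532 shared). The median score stayed between 144 and 163 under all 5 alternatives. The share of genes that share a peak was 89.1% when matched by score on the same chromosome and 93.4% by score alone, against 76.8%, since unlinked peaks with equal scores then count as shared. The transcription factor share was 5.94% with the words "transcription factor" alone (7.97% of the other targets), 15.65% without genes whose every peak is shared and 15.7% where no other gene was nearer or between, against 8.42%, and the cause was not tested. In the other 3 alternatives it was 7.82%, 8.87% and 10.4%. The rebuild by peak position, the match on the same chromosome and the split by nearer genes were chosen after seeing the data. Score alone was the match first planned, and it became an alternative then. The planned CArG-box counts were not run, since no genome sequence was used here.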
